A study of Mus musculus with 19 samples.

Results

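The genes described here are 10 members of the BCL2 family, found by exact match of the gene symbol among the 38887 genes of the count table, each on 1 row. They comprise 6 pro-survival genes (Bcl2, Bcl2l1, Mcl1 and the copies Bcl2a1a, Bcl2a1b and Bcl2a1d), 1 effector of cell death (Bax) and 3 BH3-only genes (Bcl2l11, Bbc3 and Pmaip1). All 10 passed the filter on low counts. RNA was sequenced from spleen myeloid-derived suppressor cells (MDSC), which are myeloid cells with the capacity to dampen T cell responses. The neutrophil-like kind, PMN-MDSC, was taken as CD11b+ cells with Ly6G and intermediate Ly6C, and the monocyte-like kind, M-MDSC, as CD11b+ cells with high Ly6C and no Ly6G; the labels' protocols name bead columns as well as cell sorters. There were 5 libraries of newborn PMN-MDSC, 6 of adult PMN-MDSC, 5 of newborn M-MDSC and 3 of adult M-MDSC. Newborns were 7 days old and adults 6 to 8 weeks old, no treatment or genotype is given for any group, and the labels used here name no strain or sex. Nor do they say that the libraries of a group came from separate mice, so the p-values below reflect library-to-library spread and part of that spread may be technical.

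The BCL2 family sets whether a cell opens its outer mitochondrial membrane, the committing step of the intrinsic pathway of apoptosis. Pro-survival proteins hold the effectors BAX and BAK in check, and BH3-only proteins, made or released under stress or after loss of growth factors, bind the pro-survival proteins or activate the effectors directly. Once the membrane is open, cytochrome c joins APAF1 to activate the initiator caspase. Neutrophils are short-lived cells known to rely on MCL1 and on BCL2A1 (also called A1), whereas BCL2 itself is best known as a survival protein of lymphocytes. RNA levels say nothing of how much protein was present; MCL1 and NOXA proteins in particular turn over fast.

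The mouse A1 copies form a family of near-identical genes on chromosome 9, and their sequences are given first because they set what the counts of each copy can show. On GRCm38, Bcl2a1d lies at chr9:88723285-88731914 on the minus strand, Bcl2a1a at chr9:88956900-88962419 and Bcl2a1b at chr9:89199209-89207827 on the plus strand. Each codes for 516 bases, and 12 coding positions differ among the 3 copies. Bcl2a1a differed from Bcl2a1b at 11 positions and from Bcl2a1d at 7, and Bcl2a1b from Bcl2a1d at 6. The coding bases 1 to 60, taken from the GENCODE M21 transcripts, hold 6 of the 12 positions, which are in capitals.
Bcl2a1a: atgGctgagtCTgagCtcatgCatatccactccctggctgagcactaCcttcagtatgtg
Bcl2a1b: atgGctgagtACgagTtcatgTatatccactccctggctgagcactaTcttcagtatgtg
Bcl2a1d: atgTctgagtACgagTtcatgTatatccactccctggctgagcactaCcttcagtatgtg

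The reads were 50 bases long. Of all 50-base stretches of the longest transcript, 68.96% of those of Bcl2a1a, 79.2% of those of Bcl2a1b and 79.5% of those of Bcl2a1d also occurred in a transcript of another gene (another A1 copy or Gm29094, a gene model that overlaps Bcl2a1b on the same strand and is not a row of the count table). The same share was 0% for Mcl1, Bcl2l1, Bbc3 and Pmaip1, 0.221% for Bcl2l11, 6.75% for Bcl2 and 17.6% for Bax. Most reads from an A1 copy therefore could not be assigned by sequence to that copy, and the estimated counts divide them by a model. For this reason the A1 copies are also given as 1 summed row, which includes Bcl2a1c with its 23 counts, all from adult PMN-MDSC. No strand setting is stated for the counting; the antisense genes that overlap exons of Bcl2 and Bcl2a1d, D630008O14Rik and Gm10634, had 20 and 26 counts over all 19 libraries.

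The first bases before the A1 genes were alike as well. The stretches below come from the RefSeq promoter windows (250 bases before to 50 after a transcript start, GRCm38.p6) and are shown because the letters GAGGAAGT, a PU.1 motif, stand in the window of each copy. The motif is in capitals. The stretches lie at chr9:88956776-88956865 on the plus strand, chr9:89199085-89199174 on the plus strand and chr9:88731905-88731994 on the minus strand.
Bcl2a1a: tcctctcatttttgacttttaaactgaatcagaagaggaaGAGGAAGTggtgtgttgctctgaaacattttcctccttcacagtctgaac
Bcl2a1b: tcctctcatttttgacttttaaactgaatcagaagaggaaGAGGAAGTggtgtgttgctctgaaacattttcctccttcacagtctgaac
Bcl2a1d: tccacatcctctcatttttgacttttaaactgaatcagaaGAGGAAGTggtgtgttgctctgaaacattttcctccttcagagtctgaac

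On both strands, GAGGAAGT occurred in 3.20% of all 32851 windows and, among the 9 members with a window, in those of the A1 copies only. A further 3 motifs were searched on both strands. GGG, any 3 bases, T, any base and CC, an NF-kB motif, stood in windows of Bcl2l1, Mcl1, Bcl2l11 and Bbc3 and in 17.4% of all windows. TGTTTAC, a forkhead motif, stood in windows of Bcl2l11 and Bbc3 and in 3.65% of all windows. A pair of p53 half-site cores stood in a window of Bbc3, a gene known to be induced by p53, and in 7.22% of all windows. That stretch, at chr7:16309459-16309538 on the plus strand, is shown with the pair and its spacer in capitals. A match is a run of letters, not a bound site.
Bbc3: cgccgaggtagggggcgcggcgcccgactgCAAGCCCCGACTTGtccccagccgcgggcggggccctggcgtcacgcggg

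Several properties of the libraries touch the results. The labels put the libraries in 2 batches, with 827744 to 2965896 counts in the 10 libraries of batch 1 and 14026193 to 45135933 in the 9 of batch 2, and every group had libraries of both. Levels are given as CPM, the count scaled to the size of its library. Where a library has no count, the limit of 3 counts that this allows stood at 0.990 to 3.29 CPM in batch 1 and 0.0601 to 0.197 CPM in batch 2, for counting error only. In PMN-MDSC, 5 libraries of batch 1 each resembled 1 library of batch 2: adult replicates 1, 2 and 3 resembled 32, 33 and 34, and newborn replicates 2 and 3 resembled 37 and 38. Their deviations from the mean of their group within its batch correlated at 0.297 to 0.548, against −0.374 to 0.159 for the other 10 pairs. The deviations of the 2 newborn PMN-MDSC libraries of batch 1 mirror each other. Some of the other values are therefore matched ones with the sign turned. No label gives these pairs, so the contrast describes them and is no test of them. They differed beyond sampling noise and stayed separate, but if such pairs share cells the p-values are too small, so values without the 5 partners of batch 1 are given where they change a call. Cell markers also differed with age. The 10 neutrophil markers summed to 86686 to 96106 CPM in newborn PMN-MDSC and 8857 to 9664 CPM in adult PMN-MDSC, with Ly6g at 213 ± 25.1 and 19.6 ± 4.46 CPM (SD, n = 5 and 6); it was at 0.877 ± 0.836 CPM in newborn and 0.277 ± 0.479 CPM in adult M-MDSC (SD, n = 5 and 3). Of the 10 neutrophil markers, 8 were higher and 1 was lower in newborn PMN-MDSC. In M-MDSC the neutrophil markers summed to 2631 to 12836 CPM in newborns and 628 to 1043 CPM in adults. There 7 of 10 were higher in newborns. The part of the neutrophil markers in the results was not tested. The 8 B cell markers were all lower in newborns in both cell types, summing to 587 to 890 CPM in newborn PMN-MDSC and 3731 to 5782 CPM in adult PMN-MDSC, and to 162 to 275 CPM in newborn M-MDSC and 901 to 2178 CPM in adult M-MDSC; none was at 0 in a whole group. The T cell markers were lower in newborns for 2 of 7 in PMN-MDSC and 7 of 7 in M-MDSC, those of plasma cells for 4 of 5 in each, and those of NK cells for 2 of 5 in PMN-MDSC and 4 of 5 in M-MDSC. Of 6 eosinophil markers 4 were higher in newborns in each cell type, and 1 was lower in M-MDSC. Of 8 monocyte markers 2 were higher and 4 lower in newborn PMN-MDSC, and 3 were lower in newborn M-MDSC. Macrophage markers were lower in newborns for 2 of 5 in PMN-MDSC and 4 of 5 in M-MDSC. Of 6 dendritic cell markers 1 was lower in newborns in each cell type. All 6 erythroid markers were higher in newborn PMN-MDSC, summing to 2408 to 4223 CPM there and 70.2 to 303 CPM in adult PMN-MDSC; none was called in M-MDSC, where they summed to 0.610 to 2151 CPM in newborns and 10.97 to 315 CPM in adults. The Y-linked gene Kdm5d was at 1.28 to 20.2 CPM in newborn libraries and had no count in an adult library, so age and sex cannot be told apart here. In bulk samples fewer cells of a type and less RNA per cell cannot be told apart either.

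In PMN-MDSC, newborn cells had less RNA of most of these genes than adult cells. The survival genes Bcl2 and Mcl1, the summed A1 copies, the effector Bax and all 3 BH3-only genes were lower, and Bcl2l1, which encodes the survival protein BCL-XL, was the 1 member that was higher. With edgeR's quasi-likelihood test and a Benjamini-Hochberg adjusted p under 0.05, 8 of the 10 members were called, 1 higher and 7 lower; over all 12943 genes tested, 47.7% were called, 27.1% higher and 20.5% lower. For 7 members the groups did not overlap, as for 51.4% of all genes. The median log2 fold change of newborn over adult was −1.75 over the members and −0.05 over all genes. In batch 1 alone 5 members were called, and leaving out each library in turn gave 7 to 9.

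Bcl2 was at 12.0, 12.97, 10.0, 7.54 and 14.03 CPM in the newborn PMN-MDSC libraries, and in the 6 adult PMN-MDSC libraries its lowest, median and highest levels were 68.0, 83.8 and 107 CPM. The highest newborn library was far below the lowest adult one. Newborn over adult, the log2 fold change was −2.99 ± 0.27 (SE), a level 7.93-fold lower in newborns (adjusted p = 3.36e-08, edgeR), with −2.81 in batch 1 and −2.99 in batch 2. BCL2 is the founding survival protein of the family, and its gene lies at chr1:106538178-106714274 on the minus strand. The matched pairs of adult libraries ran in the order of their B cell markers: replicates 1 and 32 had 68.0 and 77.5 CPM of Bcl2 with marker sums of 3731 and 3859 CPM, and replicates 3 and 34 had 107 and 105 CPM with sums of 5715 and 5782 CPM. Whether B cell RNA had a part in the age difference was not tested.

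Mcl1, at chr3:95658788-95663176 on the plus strand, encodes a short-lived protein on which granulocytes depend. It was at 571, 554, 625, 625 and 557 CPM in newborn PMN-MDSC, against a lowest, median and highest of 1115, 1415 and 1658 CPM in adult PMN-MDSC. Newborn libraries lay close together, and none reached the adult range. edgeR put the log2 fold change at −1.27 ± 0.22 (2.42-fold lower, adjusted p = 8.78e-05, edgeR), with −1.28 in batch 1 and −1.18 in batch 2.

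Bcl2l1, at chr2:152780668-152831728 on the minus strand, went the other way. Its level was 60.7, 78.7, 72.9, 67.4 and 61.6 CPM in newborn PMN-MDSC and 15.8, 33.3 and 48.2 CPM, lowest, median and highest, in adult PMN-MDSC. The groups did not overlap, although the adult libraries spread widely, in matched order: replicates 1 and 32 had 48.2 and 41.4 CPM, and replicates 3 and 34 had 18.6 and 15.8 CPM. The log2 fold change was 1.14 ± 0.28 (2.20-fold higher in newborns, adjusted p = 0.00246, edgeR). It was 1.04 in batch 1, where the adjusted p was 0.0563, and 1.26 in batch 2. BCL-XL is also known as a survival protein of red cell precursors, and the erythroid markers were higher in the same libraries as Bcl2l1, at 2408 to 4223 CPM in newborn and 70.2 to 303 CPM in adult PMN-MDSC. Within adult PMN-MDSC the orders differed, as replicates 1 and 32 had the most Bcl2l1 and the lowest erythroid sums, 70.2 and 81.4 CPM. The part of erythroid RNA was not tested.

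The summed A1 copies had 8.21, 7.78, 11.2, 9.18 and 13.98 CPM in newborn PMN-MDSC and 30.4, 55.5 and 64.1 CPM, lowest, median and highest, in adult PMN-MDSC. Every adult library was above every newborn one. Newborn over adult, the log2 fold change was −2.18 ± 0.60 (4.52-fold lower, adjusted p = 0.00580, edgeR); it was −2.61 in batch 1 and −2.03 in batch 2, where the adjusted p was 0.112, and −2.05 with an adjusted p of 0.113 without the matched partners. A1 is known to be induced by inflammatory signals in myeloid cells.

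Taken copy by copy, Bcl2a1b held most of the pooled A1 counts in PMN-MDSC, with 399 of 773 over the newborn libraries and 2854 of 4761 over the adult ones. In newborn replicates 2, 3 and 37 Bcl2a1b held the smaller part, with 7 of 15, 7 of 18 and 152 of 337 counts. It averaged 5.07 ± 2.18 CPM in newborns and 29.8 ± 8.62 CPM in adults (SD, n = 5 and 6), with a log2 fold change of −2.30 ± 0.93 (adjusted p = 0.0497, edgeR). That call was lost when any of 13 of the 19 libraries was left out, with adjusted p up to 0.138, and without the matched partners (−2.20, adjusted p = 0.103). Bcl2a1a (−2.25 ± 1.12, adjusted p = 0.108) and Bcl2a1d (−1.60 ± 0.97, adjusted p = 0.186) were not called. With the PMN-MDSC libraries fitted on their own both were (adjusted p = 0.0105 and 0.0177), as Bcl2a1a was with DESeq2 (adjusted p = 0.0414) and limma-voom (adjusted p = 0.00253).

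How the model divided the reads was uneven. In adult PMN-MDSC, Bcl2a1a ran from 0.971 to 22.8 CPM and Bcl2a1d from 0 to 22.4 CPM. The library with the most Bcl2a1a, replicate 2, was the one with no Bcl2a1d. Adult M-MDSC replicate 28 had 90 counts of Bcl2a1a, 0 of Bcl2a1b and 90 of Bcl2a1d, and newborn M-MDSC replicate 79 had 33, 0 and 33. Values of an individual copy are therefore uncertain throughout.

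**Figure D1:**
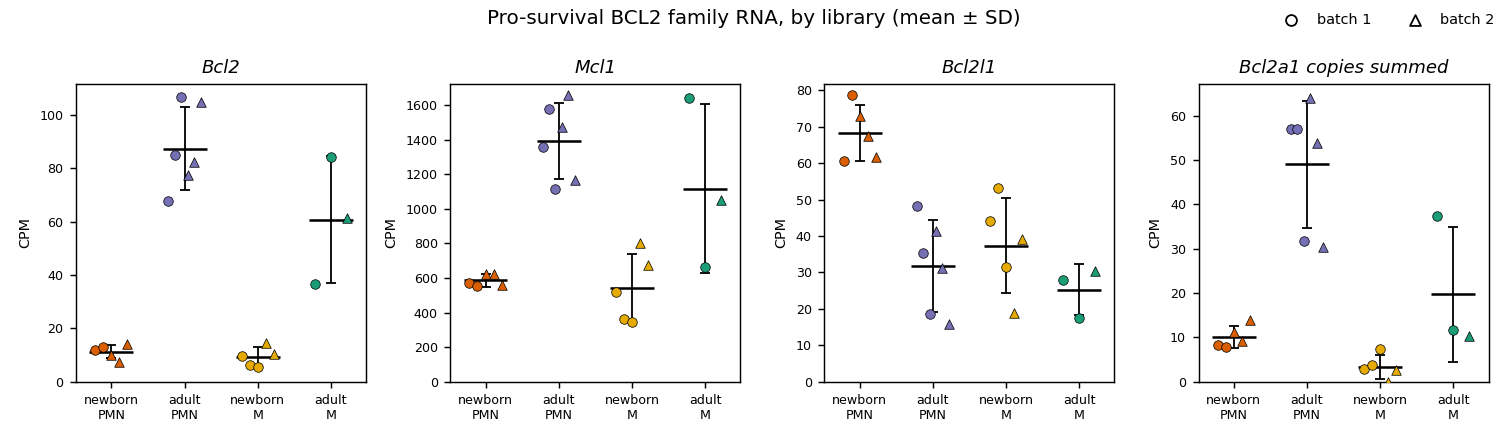
Level of the pro-survival genes in CPM (y axis) in each library of newborn and adult PMN-MDSC and M-MDSC (x axis); circles are batch 1, triangles batch 2, lines the group mean and bars ± SD. Bcl2 lies at 7.54 to 14.03 CPM in newborn and 68.0 to 107 CPM in adult PMN-MDSC, whereas Bcl2l1 is higher in newborn than in adult PMN-MDSC.

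**Figure D2:**
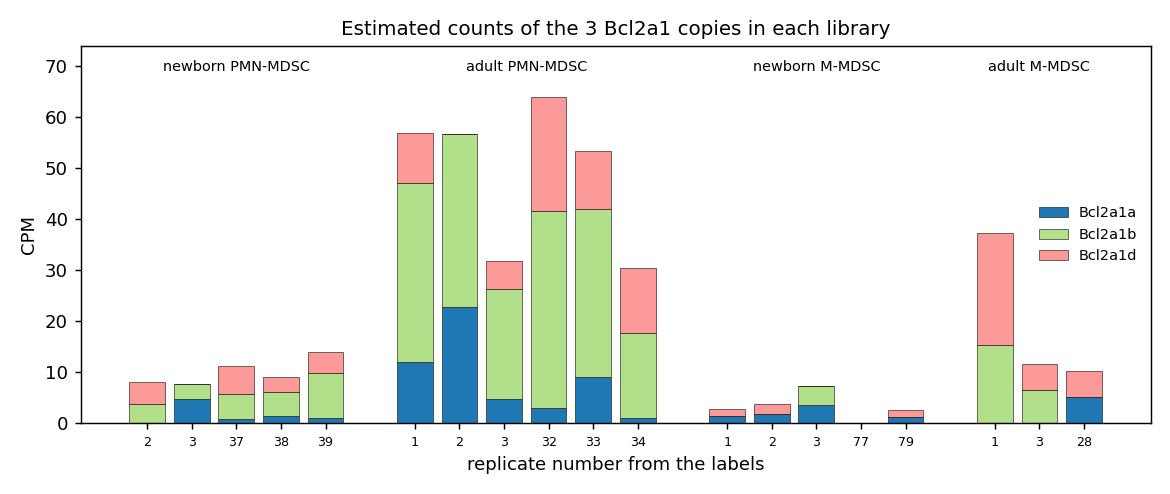
Estimated counts of Bcl2a1a, Bcl2a1b and Bcl2a1d as stacked CPM (y axis) in each library, by its replicate number (x axis) within the 4 groups. The height of a bar is comparable between libraries; the split within it rests on reads that the copies share, and adult M-MDSC replicate 28 shows equal parts of Bcl2a1a and Bcl2a1d and none of Bcl2a1b.

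Among the death genes, Bax, at chr7:45461697-45466898 on the minus strand, encodes the pore-forming effector. Its level was 8.21, 9.08, 7.87, 8.67 and 6.21 CPM in newborn PMN-MDSC, against a lowest, median and highest of 16.2, 18.6 and 23.0 CPM in adult PMN-MDSC. The groups were apart and each was tight. edgeR put the log2 fold change at −1.23 ± 0.21 (2.35-fold lower, adjusted p = 9.64e-05, edgeR); it was −1.12 in batch 1, where the adjusted p was 0.0627, and −1.24 in batch 2.

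Pmaip1, which encodes the BH3-only protein NOXA, a partner of MCL1 and A1, had the largest fold change of the members in PMN-MDSC. It was at 14.2, 14.3, 12.9, 14.2 and 12.4 CPM in newborn PMN-MDSC and 82.8, 152 and 168 CPM, lowest, median and highest, in adult PMN-MDSC. The newborn libraries were almost level with each other and all lay far below the adult ones. The log2 fold change was −3.37 ± 0.35 (10.3-fold lower, adjusted p = 2.36e-07, edgeR), with −3.23 in batch 1 and −3.33 in batch 2.

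Bcl2l11, at chr2:128126038-128162547 on the plus strand, encodes BIM, a BH3-only protein that binds all pro-survival members and ends the life of many blood cells. It stood at 55.3, 55.8, 50.6, 57.0 and 49.8 CPM in newborn PMN-MDSC, and its adult levels were 84.6, 158 and 366 CPM as lowest, median and highest. The groups did not overlap, but the adult libraries differed widely in matched order, with 366 and 352 CPM in replicates 1 and 32, 151 and 165 CPM in replicates 2 and 33, and 84.6 and 92.2 CPM in replicates 3 and 34. Newborn over adult, the log2 fold change was −1.91 ± 0.38 (3.75-fold lower, adjusted p = 3.58e-04, edgeR), with −1.85 in batch 1 and −1.89 in batch 2.

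Bbc3, at chr7:16308393-16318205 on the plus strand, encodes PUMA, the BH3-only protein best known as a target of p53. It was at 7.66, 6.05, 5.70, 6.06 and 5.22 CPM in newborn PMN-MDSC and 6.46, 12.4 and 34.0 CPM, lowest, median and highest, in adult PMN-MDSC. Replicates 3 and 34 of the adults, at 6.60 and 6.46 CPM, fell within the newborn range, so the groups overlapped. edgeR put the log2 fold change at −1.23 ± 0.38 (2.34-fold lower, adjusted p = 0.0126, edgeR). It was −1.33 in batch 1 (adjusted p = 0.139), −1.08 in batch 2 (adjusted p = 0.0958) and −1.10 without the matched partners (adjusted p = 0.104), so it was called only with the batches combined.

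**Figure D3:**
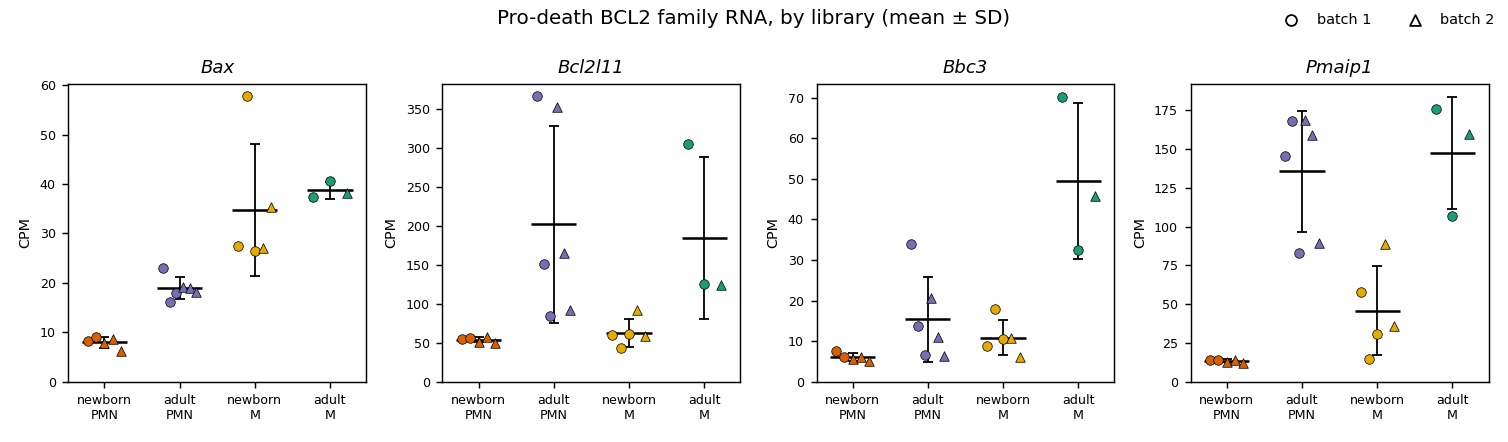
Level of the pro-death genes in CPM (y axis) in each library of newborn and adult PMN-MDSC and M-MDSC (x axis), with batch 1 as circles, batch 2 as triangles, the group mean as a line and ± SD as a bar. Newborn PMN-MDSC are lowest for Pmaip1, at 12.4 to 14.3 CPM, and Bax is higher in both M-MDSC groups than in both PMN-MDSC groups.

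In M-MDSC, newborn cells also had less RNA of Bcl2, Mcl1, the summed A1 copies and all 3 BH3-only genes than adult cells, while Bax and Bcl2l1 were not called. The test called 7 of the 10 members, all of them lower, against 30.2% of all genes called and 14.3% called lower. The groups did not overlap for 5 members, as for 23.1% of all genes. The median log2 fold change was −1.62 over the members and 0.01 over all genes. Adult M-MDSC had 3 libraries, and replicate 1 was the highest of them for Mcl1, Bcl2l11, Bbc3, Pmaip1 and the summed A1 copies; without it 4 members were called, and in batch 2 alone, with 1 adult M-MDSC library assumed to vary like the other groups, 2 were.

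Bcl2 was at 9.75, 6.41, 5.56, 14.4 and 10.6 CPM in newborn M-MDSC, against 36.7, 84.3 and 61.4 CPM in adult M-MDSC. The groups were well apart. The log2 fold change was −2.66 ± 0.30 (6.33-fold lower, adjusted p = 2.25e-06, edgeR), with −3.06 in batch 1 and −2.25 in batch 2. The adult library with the least Bcl2, replicate 1, also had the lowest B cell marker sum, at 901 CPM, against 2178 and 2148 CPM in replicates 3 and 28; the part of B cell RNA was not tested.

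Mcl1 was at 519, 365, 348, 799 and 673 CPM in newborn M-MDSC and 1638, 665 and 1048 CPM in adult M-MDSC. Adult replicate 3, at 665 CPM, lay below 2 newborn libraries. Newborn over adult, the log2 fold change was −1.10 ± 0.25 (adjusted p = 0.00283, edgeR), with −1.50 in batch 1 and −0.46 in batch 2, where the adjusted p was 0.188; with the M-MDSC libraries fitted on their own the adjusted p was 0.0519. Bcl2l1 was at 44.1, 53.2, 31.5, 18.9 and 39.2 CPM in newborn M-MDSC, against 28.0, 17.4 and 30.5 CPM in adult M-MDSC, and the groups overlapped (0.52 ± 0.35, adjusted p = 0.282). Among newborn M-MDSC, replicate 2 had the most Bcl2l1 and the highest erythroid sum, 2151 CPM. Replicate 77 had the least Bcl2l1 and the lowest sum, 0.610 CPM. Between them the orders differed, as replicate 79 had more Bcl2l1 than replicate 3, with sums of 45.9 and 804 CPM. The part of erythroid RNA was not tested.

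The summed A1 copies had 2.79, 3.85, 7.41, 0 and 2.66 CPM in newborn M-MDSC, against 37.3, 11.6 and 10.4 CPM in adult M-MDSC. All adult libraries were higher, replicate 1 by far the most. edgeR put the log2 fold change at −2.72 ± 0.75 (6.57-fold lower, adjusted p = 0.0103, edgeR). Without adult replicate 1 it was −2.03 with an adjusted p of 0.0768, and in batch 2 alone −2.83 with an adjusted p of 0.142. Among the single copies, Bcl2a1b (−3.88 ± 1.43, adjusted p = 0.0478) and Bcl2a1d (−3.83 ± 1.27, adjusted p = 0.0286) were called; Bcl2a1b had 8 counts in all over the newborn M-MDSC libraries, its fitted fold change depends on the prior count, and its call was lost when any of 17 of the 19 libraries was left out, without the matched partners (−3.01, adjusted p = 0.0738) and with limma-voom (adjusted p = 0.103). Bcl2a1d lost its call without adult M-MDSC replicate 1, without newborn M-MDSC replicate 3, with the M-MDSC libraries fitted on their own (adjusted p = 0.160), in batch 1 alone (0.0814), in batch 2 alone (0.175) and with limma-voom (0.0980).

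Pmaip1 was at 57.6, 14.8, 31.0, 89.0 and 35.9 CPM in newborn M-MDSC, and at 176, 107 and 160 CPM in adult M-MDSC. The newborn libraries spread widely, and all were below the adult ones. The log2 fold change was −1.71 ± 0.36 (3.27-fold lower, adjusted p = 0.00155, edgeR), with −2.03 in batch 1 and −1.32 in batch 2, where the adjusted p was 0.0755.

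Bcl2l11 was at 60.4, 43.0, 60.7, 92.4 and 59.1 CPM in newborn M-MDSC, against 305, 125 and 125 CPM in adult M-MDSC. The groups did not overlap, and adult replicate 1 was the high library. Newborn over adult, the log2 fold change was −1.53 ± 0.43 (2.89-fold lower, adjusted p = 0.0110, edgeR), −1.98 in batch 1 and −0.68 in batch 2 (adjusted p = 0.451). Without adult replicate 1 it was −0.998 with an adjusted p of 0.109, and with limma-voom the adjusted p was 0.0595.

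Bbc3 was at 8.82, 17.96, 10.7, 10.9 and 6.12 CPM in newborn M-MDSC and at 70.2, 32.4 and 45.7 CPM in adult M-MDSC. Here the groups were apart. edgeR put the log2 fold change at −2.19 ± 0.43 (4.58-fold lower, adjusted p = 7.93e-04, edgeR), with −2.06 in batch 1 and −2.39 in batch 2. Bax was at 27.4, 57.7, 26.4, 27.2 and 35.3 CPM in newborn M-MDSC, against 37.3, 40.7 and 38.1 CPM in adult M-MDSC, and was not called (−0.16 ± 0.24, adjusted p = 0.667).

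**Figure D4:**
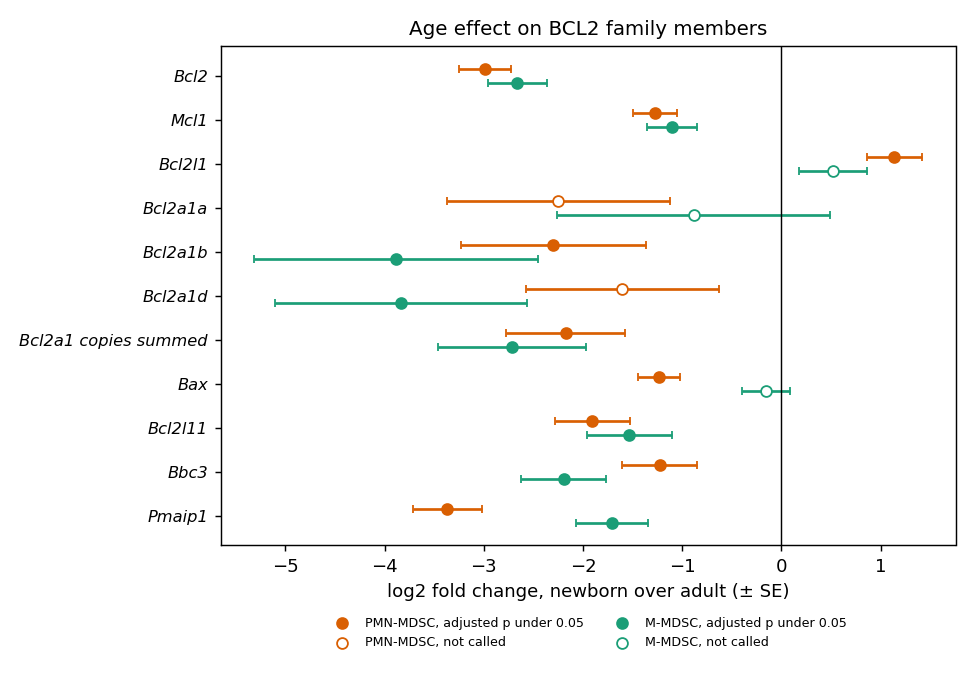
Log2 fold change of newborn over adult (x axis; bars ± SE, edgeR) for each member and for the summed A1 copies (y axis), with PMN-MDSC in orange above M-MDSC in green; filled points had an adjusted p under 0.05. Bcl2l1 is the 1 member right of 0, and Bax and Pmaip1 show the widest gaps between the cell types relative to their errors.

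Whether age acted unequally in the cell types was tested as the difference of the age effects, PMN-MDSC minus M-MDSC. Of the 10 members 2 were called, Bax and Pmaip1, both with the larger newborn deficit in PMN-MDSC; over all genes 18.1% were called, and 6.61% in that direction. The difference was −1.07 ± 0.32 for Bax (adjusted p = 0.0266) and −1.66 ± 0.50 for Pmaip1 (adjusted p = 0.0259, edgeR). Both rest on a narrow margin. In batch 1 alone the values were −1.03 for Bax (adjusted p = 0.330) and −1.20 for Pmaip1 (adjusted p = 0.353), and in batch 2 alone −1.02 (adjusted p = 0.114) and −2.01 (adjusted p = 0.0457). Without the matched partners the adjusted p was 0.171 for Bax and 0.175 for Pmaip1. The Bax call was lost without any 1 of adult PMN-MDSC replicate 1, newborn PMN-MDSC replicates 2, 3 and 39, newborn M-MDSC replicate 2 and adult M-MDSC replicates 1 and 3, with adjusted p up to 0.0681. The Pmaip1 call was lost without any 1 of adult PMN-MDSC replicates 1 and 2, newborn PMN-MDSC replicates 37 and 38, newborn M-MDSC replicate 1 and adult M-MDSC replicates 3 and 28, with adjusted p up to 0.0701. For Bcl2l1, which was called in PMN-MDSC and not in M-MDSC, the difference of 0.62 ± 0.44 was not called (adjusted p = 0.370), nor was that for Bbc3 (0.97 ± 0.57, adjusted p = 0.269).

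Between the cell types, the clearest difference was in the effector. Bax was higher in M-MDSC than in PMN-MDSC at both ages, by 4.26-fold in newborns (log2 fold change 2.09 ± 0.22, adjusted p = 6.25e-07, edgeR) and 2.02-fold in adults (1.02 ± 0.23, adjusted p = 0.00294), with no overlap of the groups at either age. In batch 1 alone the adult value was 1.06 with an adjusted p of 0.0936, and without the matched partners it was 0.92 with an adjusted p of 0.0951.

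In newborns 4 members were called between the cell types, 2 higher and 2 lower in M-MDSC, against 42.0% of all genes called, 18.7% higher and 23.4% lower. Beside Bax, Pmaip1 was 3.52-fold higher in M-MDSC (1.82 ± 0.34, adjusted p = 3.09e-04, edgeR), with 14.8 to 89.0 CPM in newborn M-MDSC and 12.4 to 14.3 CPM in newborn PMN-MDSC; in batch 1 alone it was 1.29 with an adjusted p of 0.0825. Bcl2l1 was 1.90-fold lower in M-MDSC (−0.93 ± 0.30, adjusted p = 0.0178), with 18.9 to 53.2 CPM in newborn M-MDSC and 60.7 to 78.7 CPM in newborn PMN-MDSC. Its call was lost in batch 1 alone (−0.70, adjusted p = 0.192), in batch 2 alone (−1.30, adjusted p = 0.0580), without the matched partners (−1.10, adjusted p = 0.0703) and without newborn M-MDSC replicate 77 (−0.71, adjusted p = 0.0570). The fourth was Bcl2a1b (adjusted p = 0.0175), with counts in 1 of 5 newborn M-MDSC libraries; its call was lost with the newborn libraries fitted on their own (adjusted p = 0.0715), in batch 1 alone (adjusted p = 0.350) and without newborn M-MDSC replicate 79. The summed A1 copies were 4.10-fold lower in newborn M-MDSC (−2.04 ± 0.71, adjusted p = 0.0286), with −0.74 in batch 1 (adjusted p = 0.379) and −3.15 in batch 2 (adjusted p = 0.0595). That call was also lost without newborn PMN-MDSC replicate 39 (adjusted p = 0.0521) and without newborn M-MDSC replicate 79 (adjusted p = 0.0567). In batch 1 alone 1 member was called.

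In adults 2 members were called, both higher in M-MDSC, against 29.1% of all genes called and 16.7% called higher; the groups did not overlap for 2, Bax and Bcl2a1b, as for 29.7% of all genes. Bbc3 was 3.20-fold higher in M-MDSC (1.68 ± 0.41, adjusted p = 0.00475, edgeR), with 32.4 to 70.2 CPM in adult M-MDSC and 6.46 to 34.0 CPM in adult PMN-MDSC. The groups overlapped by 1 library, PMN-MDSC replicate 1, and in batch 1 alone the value was 1.58 with an adjusted p of 0.0900. Bcl2 averaged 60.8 ± 23.8 CPM in adult M-MDSC and 87.5 ± 15.4 CPM in adult PMN-MDSC (SD, n = 3 and 6) and was not called (−0.50 ± 0.28, adjusted p = 0.198). Without adult M-MDSC replicate 3 Bcl2 was called (−0.88, adjusted p = 0.0422), and without adult M-MDSC replicate 1 Mcl1 was (−0.79, adjusted p = 0.0196). In batch 1 alone the 1 member called was Bcl2a1a, lower in M-MDSC (adjusted p = 0.0190), and neither Bax nor Bbc3 was called. Bcl2a1b, not called with all libraries (adjusted p = 0.120), was called lower in batch 2 alone, where the 1 adult M-MDSC library has no count of it (adjusted p = 7.41e-04), without the matched partners (adjusted p = 0.00301) and with DESeq2 (adjusted p = 0.0349).

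Levels of different genes can be compared only per length, here as CPM per kilobase of exon. On that scale Mcl1 was the highest member in all 4 groups, at 172 ± 10.4 in newborn PMN-MDSC, 407 ± 64.1 in adult PMN-MDSC, 158 ± 57.2 in newborn M-MDSC and 327 ± 143 CPM per kilobase in adult M-MDSC (SD, n = 5, 6, 5 and 3). Its share of the summed level of the 6 pro-survival members was 85.7 ± 1.55%, 84.0 ± 1.94%, 90.9 ± 4.95% and 89.4 ± 2.46% in the same order. Mcl1 thus made up most of this RNA at either age. The sum leaves out Bcl2l2, a pro-survival gene that is not a member, with 4264 bases of exon. In the same order of groups Bcl2l2 averaged 6.63, 7.15, 16.6 and 11.7 CPM. The members behind Mcl1 changed places with age. Bcl2l1 was second of the 10 in newborn PMN-MDSC, at 14.9 ± 1.66 CPM per kilobase, and last in adult PMN-MDSC, at 6.93 ± 2.77; with the longest transcript as length it was at 12.4 ± 4.94 in adult PMN-MDSC, just above Bcl2 at 12.2 ± 2.15, and so not last. Pmaip1 was at 4.98 ± 0.328 CPM per kilobase in newborn PMN-MDSC and 49.7 ± 14.4 in adult PMN-MDSC, second to Mcl1 there with the A1 copies taken singly. The summed A1 copies were at 12.1 ± 3.06 CPM per kilobase in newborn PMN-MDSC and 59.2 ± 17.3 in adult PMN-MDSC, and in adults they and Pmaip1 did not differ beyond their spread. In M-MDSC, Bax was second in newborns, at 40.1 ± 15.4, and ranked after Pmaip1 in adults, at 44.6 ± 2.04.

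The shares of the pro-survival members behind Mcl1 were unlike at the 2 ages. All shares are of the same sum of the 6 pro-survival members, Mcl1 included. Bcl2l1 made up 6.88 to 9.01% of that sum in newborn PMN-MDSC and 0.869 to 2.16% in adult PMN-MDSC, without overlap. Bcl2 made up 0.4999 to 0.9992% in newborn and 1.94 to 3.87% in adult PMN-MDSC, also without overlap. The A1 copies made up 4.99 to 8.62% in newborn and 9.20 to 14.6% in adult PMN-MDSC. In M-MDSC, Bcl2 made up 0.652 to 0.834% in newborns and 0.956 to 5.23% in adults, and Bcl2l1 made up 1.72 to 9.37% in newborns and 1.14 to 1.99% in adults, which overlapped. With the longest transcript as length, the mean share of Bcl2l1 was 12.6% in newborn and 2.47% in adult PMN-MDSC, against 7.45% and 1.4% with exon length.

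The genes whose profiles lay closest to each member are given by the root mean square difference of log2 CPM over the 19 libraries, after each gene was centred on its own mean; 8531 genes of at least 10 CPM were compared. Closest to Bcl2 were Cbx7 (0.34), a Polycomb gene, and H2-DMb2 (0.39), an MHC class II gene of antigen-presenting cells including B cells; for scale, the SD of Bcl2 itself was 1.53 on log2 CPM. Closest to Bax were Cluh (0.22) and the lysosomal protease gene Ctsz (0.28), with an SD of 0.91 for Bax. Closest to Bcl2l1 were Slc9a3r1 (0.28) and Pxn (0.31), which encodes the adhesion protein paxillin. Closest to Mcl1 were Hspa5 (0.30), the main chaperone of the endoplasmic reticulum, and Zfp827 (0.32).

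Among the BH3-only genes, Bcl2l11 lay closest to Mapk6 and Plcxd2 (both 0.32). Bbc3 lay closest to Nr4a1 (0.44), an early-response gene, and Nfkbib (0.45), which encodes an inhibitor of NF-kB. Pmaip1 lay closest to Il13ra1 (0.47) and Ppp1r15a (0.49), a gene of the integrated stress response. Nr4a1 averaged 157 CPM in newborn and 461 CPM in adult PMN-MDSC, and 333 CPM in newborn and 1049 CPM in adult M-MDSC. Ppp1r15a averaged 30.3 CPM in newborn and 357 CPM in adult PMN-MDSC, and 80.2 CPM in newborn and 379 CPM in adult M-MDSC. Bcl2a1b lay closest to Gbp4 (0.60), an interferon-induced gene, and Ighv1-26 (0.93), an immunoglobulin heavy chain gene. The SD of Bcl2a1b itself was 2.9. With the prior count of 2, its libraries without a count stood at −3.63 to 0.359 on log2 CPM, depending on depth. Gbp4 and Ighv1-26 averaged 0.649 and 0.385 CPM in newborn M-MDSC. How far low counts shaped this likeness was not tested. The nearest genes to Bcl2a1a and Bcl2a1d were 1.18 to 1.19 away, against SDs of 1.81 and 1.97.

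Of 16 other BCL2 family genes, 9 passed the filter. In PMN-MDSC 4 of these 9 were higher in newborns and 1 was lower, against 27.1% and 20.5% of all genes, and in M-MDSC none was higher and 1 was lower, against 15.9% and 14.3% of all genes. A share of 5 called of 9 in PMN-MDSC is near the 47.7% of all genes. In PMN-MDSC, Bak1, the second effector beside Bax, was higher in newborns at 90.9 ± 13.1 CPM, against 37.4 ± 4.29 CPM in adults (SD, n = 5 and 6; log2 fold change 1.31 ± 0.20, adjusted p = 2.81e-05, edgeR). The mitophagy receptors Bnip3l (1.31 ± 0.14, adjusted p = 2.95e-07) and Bcl2l13 (1.12 ± 0.17, adjusted p = 2.18e-05) were higher too. Bmf, a BH3-only gene, was lower in newborns in PMN-MDSC (−1.36 ± 0.21, adjusted p = 3.11e-05) and in M-MDSC (−1.37 ± 0.24, adjusted p = 2.94e-04). Bad, another BH3-only gene, averaged 25.4 ± 8.73 CPM in newborn and 15.4 ± 7.75 CPM in adult M-MDSC (SD, n = 5 and 3) and was not called there (0.68 ± 0.36, adjusted p = 0.168).

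All 15 genes listed as mitochondrial death machinery, among them Casp8 and the Vdac channel genes, passed the filter. Of these, 8 were higher and none lower in newborn PMN-MDSC, against 27.1% of all genes higher. In newborn M-MDSC 4 were higher and none lower, against 15.9% higher. Apaf1, the scaffold of the apoptosome, averaged 323 ± 19.9 CPM in newborn and 95.9 ± 13.02 CPM in adult PMN-MDSC (SD, n = 5 and 6; 1.75 ± 0.14, adjusted p = 7.23e-09, edgeR). The outer membrane channel genes Vdac1 (1.27 ± 0.16 in PMN-MDSC, 1.04 ± 0.20 in M-MDSC) and Vdac2 (1.17 ± 0.12 and 0.56 ± 0.15) were higher in newborns in both cell types, with the largest adjusted p of the 4 at 0.00738. In M-MDSC of batch 2 alone neither was called (adjusted p = 0.158 for Vdac1 and 0.318 for Vdac2), and Vdac2 was not called with the M-MDSC libraries fitted on their own (adjusted p = 0.128).

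Of the 6 caspase inhibitors, 2 were higher and 1 lower in newborn PMN-MDSC, and 1 was higher and 2 lower in newborn M-MDSC. In PMN-MDSC that is near the 47.7% of all genes called; in M-MDSC 30.2% were. Birc5, which encodes survivin and is expressed by dividing cells, was higher in newborns in PMN-MDSC (2.59 ± 0.22, adjusted p = 2.24e-08, edgeR) and in M-MDSC (2.99 ± 0.30, adjusted p = 8.23e-07). Birc3, which encodes cIAP2 and is induced by NF-kB, was lower in both (−1.25 ± 0.22, adjusted p = 1.43e-04, and −1.41 ± 0.26, adjusted p = 5.09e-04), though in M-MDSC of batch 2 alone the value was −0.62 and not called. Cflar, which encodes the caspase-8 inhibitor c-FLIP, averaged 253 ± 7.73 CPM in newborn and 120 ± 16.6 CPM in adult PMN-MDSC (1.07 ± 0.24, adjusted p = 0.00109, and 0.0758 without the matched partners). In M-MDSC, a value chosen after it was seen, it was lower in newborns (−1.09 ± 0.29, adjusted p = 0.00753, edgeR). Newborn M-MDSC averaged 106 ± 26.8 CPM (SD, n = 5), with a highest of 128 CPM. The lowest, median and highest adult M-MDSC levels were 136, 139 and 395 CPM, so 1 of 3 libraries stood far above. The difference of its age effects was 2.15 ± 0.37 (adjusted p = 4.76e-04, edgeR). Neither this difference nor the M-MDSC value was rerun under the alternatives. Birc2 was not called in PMN-MDSC (−0.70 ± 0.35, adjusted p = 0.104), and 26 of 33 alternatives kept that. It was called lower with the PMN-MDSC libraries fitted on their own (−0.69, adjusted p = 1.00e-04), DESeq2 (adjusted p = 0.0311) and limma-voom (adjusted p = 1.11e-04). The same held in edgeR with DESeq2 size factors (adjusted p = 0.0476), with upper-quartile scaling (0.0319) and without adult M-MDSC replicate 28 (0.0156). In batch 2 alone the value was −0.66, also called lower, in a fit with 1 adult M-MDSC library.

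Of 14 upstream regulators, 3 were higher and 6 lower in newborn PMN-MDSC, and none was higher and 7 were lower in newborn M-MDSC. Over all genes 27.1% were higher and 20.5% lower in PMN-MDSC, and 15.9% higher and 14.3% lower in M-MDSC. Foxo1 encodes a forkhead factor that is known to induce Bcl2l11 and Bbc3 and is abundant in B cells. It averaged 28.3 ± 5.46 CPM in newborn and 308 ± 77.9 CPM in adult PMN-MDSC (SD, n = 5 and 6; −3.45 ± 0.21, adjusted p = 3.09e-10, edgeR), and 25.3 ± 5.22 CPM in newborn and 168 ± 35.8 CPM in adult M-MDSC (SD, n = 5 and 3; −2.74 ± 0.23, adjusted p = 1.00e-07). The B cell markers given above were lower in the same groups, and their part was not tested. Ddit3, which encodes the stress factor CHOP, was lower in newborn PMN-MDSC (−2.48 ± 0.33, adjusted p = 4.30e-06). Huwe1, which encodes a ubiquitin ligase of MCL1, was lower there too (−1.10 ± 0.16, adjusted p = 1.41e-05).

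Spi1 encodes PU.1, the factor whose motif letters stand in the A1 windows shown above. It was higher in newborn PMN-MDSC, at 421 ± 45.1 CPM, than in adult PMN-MDSC, at 177 ± 25.2 CPM (SD, n = 5 and 6). Its log2 fold change was 1.24 ± 0.17 (adjusted p = 6.80e-06, edgeR), and the summed A1 copies were lower. Whether PU.1 had a part in the A1 levels was not tested. Pim2, a survival kinase gene, was lower in newborn M-MDSC (−1.53 ± 0.34, adjusted p = 0.00219), with −1.17 in batch 1 (adjusted p = 0.0696) and −1.31 with limma-voom (adjusted p = 0.0741).

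**Figure D5:**
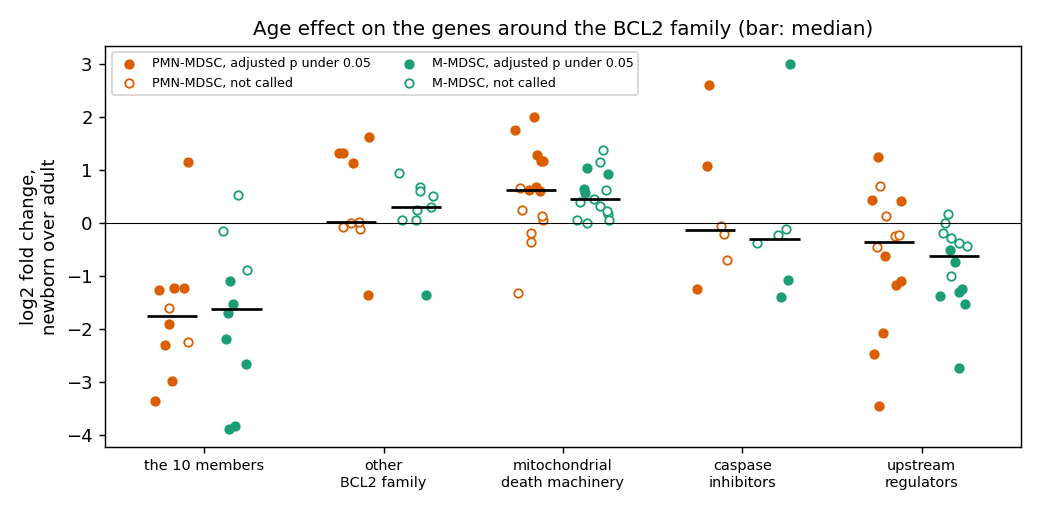
Log2 fold change of newborn over adult (y axis) for each tested gene of the 10 members and of the lists around them (x axis), with PMN-MDSC in orange left of M-MDSC in green, filled points for an adjusted p under 0.05 and a bar at the median. The members sit mostly below 0, and the mitochondrial death machinery sits mostly above 0 in both cell types.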

How the data were processed

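Total RNA of the 19 libraries was sequenced as 50-base single-end reads. The deposited table holds estimated counts per gene and library, not normalized; the submitters' processing notes name RSEM 1.2.3, the build mm10 and DESeq2, without saying what each was used for. Aligner and annotation release were not given in the sources used here, nor was a strand setting. The labels' protocols describe a dye against dead cells for the sort.

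The estimated counts are deposited as whole numbers and were used as they stand. Of 38887 genes, 852 of them with no symbol, 12943 passed edgeR's filterByExpr by group. Libraries were scaled by TMM, and edgeR 4.0.16 in R 4.3.3 fitted cell type and age groups with the batch as a term over all 19 libraries, with 14 residual degrees of freedom. Quasi-likelihood tests were adjusted by Benjamini-Hochberg over all genes tested, and a call is an adjusted p under 0.05. The log2 CPM values used to compare profiles have a prior count of 2. Fold changes use edgeR's default prior count, and CPM uses the TMM-scaled totals. The scripts were tested on simulated counts. Alternatives used limma 3.58.1 and DESeq2 1.42.0; tables were handled in Python 3.11.15 with pandas 2.3.3.

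The 10 members and all gene lists were chosen with earlier results of these data known. Beside the members, the text names up to 4 genes of each list by the smallest adjusted p in PMN-MDSC and up to 2 in M-MDSC. It also names the 2 genes of at least 10 CPM nearest to each member, except for Bcl2a1a and Bcl2a1d. A gene that this rule names is not reported here. Bcl2a1a and Bcl2a1d carry older gene identifiers in the table and were matched to GENCODE M21 by transcript. Summing the A1 copies was among the alternatives chosen at the start, and the alternatives run on that row were chosen after seeing the data.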

Additional observations from a re-analysis of the deposited data

Results flagged for a closer look

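Bcl2a1b in newborn M-MDSC had 3.71 CPM in replicate 3 and no count in the other 4 libraries, and the gap set replicate 3 apart; the copies share most of their sequence. Bax in newborn M-MDSC was 57.7 CPM in replicate 2, against 26.4 to 35.3 CPM in the other 4. In all, 33 sets of libraries were examined in this way and 2 stood out, where chance alone gives about 1 in 20.

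The age effect in PMN-MDSC minus that in M-MDSC was −1.07 for Bax and −1.66 for Pmaip1, and both passed the test of the difference itself. Newborn M-MDSC replicate 2, the high Bax library, was 1 of those without which the Bax difference was no longer called.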

How the results depend on the processing

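Of 712 comparisons of a member's value with an alternative, 639 kept direction and side of the threshold, and 973 of 1045 did with each library left out in turn. For Bcl2, Mcl1, Pmaip1 and Bcl2l11 in PMN-MDSC, every alternative run kept the call. Summed over members, the calls in PMN-MDSC were 5 in batch 1 only (8 with all libraries; 7 to 9 with a library left out). In M-MDSC they were 4 with the compared groups only, 2 in batch 2 only and 4 with limma-voom (7 with all; 4 to 7). For the difference of age effects they were 0 in batch 1 only, 1 in batch 2 only, 0 without the matched partners, 1 with limma-voom and 1 with no filter (2 with all; 0 to 3). Between cell types they were 1 in batch 1 only in newborns (4 with all; 3 to 4) and 1 in batch 1 only in adults (2 with all; 2 to 3). The settings of 1 batch, of the compared groups or without the partners fit fewer libraries; the cause of the changes with limma-voom and with no filter was not tested.

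Directions turned only for values that were not called. With M-MDSC newborn against adult, Bcl2a1a was 5.26 in batch 1 only, 0.25 without the matched partners and 3.08 with limma-voom (−1.56 to 7.74 with a library left out). For the difference of age effects, batch 1 only gave Bcl2 0.25, Mcl1 0.22, Bcl2a1b −0.16, Bcl2l11 0.12 and the summed A1 copies −0.26, batch 2 only gave Bcl2a1a 0.99 and Bcl2a1b −2.18, and Mcl1 was 0.019 without the matched partners; with a library left out Mcl1 ran from −0.62 to 0.081, Bcl2l11 from −0.92 to 0.029 and the summed A1 copies from −0.16 to 1.07. For M-MDSC against PMN-MDSC in newborns, batch 2 only gave Bcl2 0.12 and Mcl1 0.17, Mcl1 was 0.0030 with the compared groups only and 0.053 with upper-quartile scaling, Bcl2a1a was 0.98 without the matched partners and 0.24 with limma-voom, and Bcl2l11 was −0.011 in batch 1 only; Bcl2a1a ran from −0.70 to 0.37 with a library left out. In adults, Mcl1 was 0.0030 without the matched partners, Bcl2a1a 0.15 in batch 2 only, Bcl2a1d −1.68 in batch 2 only and −1.29 without the matched partners, Bcl2l11 0.11 in batch 1 only and 0.070 with limma-voom, and Pmaip1 −0.18 with limma-voom; with a library left out Bcl2a1d ran from −0.89 to 1.04, Bcl2l11 from −0.74 to 0.23 and Pmaip1 from −0.10 to 0.28.

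Over all genes, calls in PMN-MDSC were 6171, and 9548 with the compared groups only, 3760 in batch 1 only and 3740 without the matched partners. In M-MDSC they were 3910, and 1267 with the compared groups only and 2315 with limma-voom. For the difference they were 2344, and 408 in batch 1 only, 4254 in batch 2 only and 968 without the matched partners. Between cell types they were 5437 in newborns and 3231 in batch 1 only, and 3772 in adults, 1368 in batch 1 only, 6457 in batch 2 only, 2407 without the matched partners, 1820 with limma-voom and 2250 without adult M-MDSC replicate 28. Upper-quartile scaling moved the median of all genes by −0.24 in PMN-MDSC, and DESeq2 size factors by −0.17.

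Whether replicate numbers pair the libraries cannot be told here: 12 same-numbered pairs correlated at −0.0711 to 0.280, 2 of them over 0.1. Those 2, at 0.280 and 0.267, were the only pairs of adult PMN-MDSC with adult M-MDSC. A count of 2 pairs is too few to show pairing or its absence. With the replicate block, Bcl2a1b lost its call in PMN-MDSC (−2.26, adjusted p = 0.0661) and in M-MDSC (−3.42, adjusted p = 0.121), and no other member's age call changed. Depth limits the low members most: in batch 1 a value under 0.990 to 3.29 CPM cannot be told from 0.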
